A study of Mus musculus with 6 samples.

Results

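The 10 genes *Dcn*, *Bgn*, *Aspn*, *Fmod*, *Lum*, *Prelp*, *Kera*, *Omd*, *Ogn* and *Podn* encode small leucine-rich proteoglycans (SLRPs) of the bone and connective tissue matrix. They were taken by symbol from the deposited count tables, where all 10 were found among 44556 listed genes and all 10 passed the filter on low counts that left 15600 genes to test. RNA was measured in parietal bone, a flat bone of the skull vault, from newborn C57BL/6 mice. There were 3 libraries labelled *OsxCre* and 3 labelled *OsxCre;Stat3fl/fl*, from littermates, and every animal of both groups carried the *OsxCre* transgene. In the libraries labelled *OsxCre;Stat3fl/fl* both *Stat3* alleles were floxed. Cre made under the control of Osx, mainly in precursors of osteoblasts, could thus delete part of the gene there and in their descendants. Cells of the bone outside this lineage would keep the gene whole. The comparison asked how the RNA of these matrix genes differed between the genotypes.

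SLRPs are secreted proteins built around a curved array of leucine-rich repeats that binds fibrillar collagen, and they help to set the diameter and spacing of collagen fibrils. Many carry glycosaminoglycan chains, chondroitin or dermatan sulfate on the class I proteins decorin and biglycan and keratan sulfate on most class II proteins. In bone they are made by osteoblasts and by fibroblasts of the periosteum, sutures and attached tendon. Besides collagen, several bind growth factors of the TGF-beta and BMP families and surface receptors.

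No gene of the 10 differed between the genotypes beyond the spread of the libraries after adjustment. By edgeR's quasi-likelihood test with Benjamini-Hochberg adjustment over all 15600 genes, 0 of 10 passed an adjusted p of 0.05 in either direction, where 1.26% of all genes tested passed. DESeq2's Wald test and limma-voom also called 0 of the 10. At an unadjusted p of 0.05 *Lum* alone passed, 1 of 10, against a background of 16.4% of all genes. Across the 10 genes the 95% intervals of the fold change together spanned 0.662 to 1.49, so that any change larger than these bounds lay outside the interval of each gene. *Lum* and *Bgn* were the 2 genes whose libraries did not overlap between the genotypes, both lower in every library labelled *OsxCre;Stat3fl/fl*. The share of all genes without overlap, higher or lower, was 23.0%, close to these 2 of 10.

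Most of these genes lie in gene clusters (positions on the GRCm38.p6 build from RefSeq). *Dcn* spans chr10:97479500-97518163, followed on the same strand by *Lum* at chr10:97565501-97572703 and *Kera* at chr10:97606962-97613688. *Aspn* at chr13:49544443-49567565, *Omd* at chr13:49582462-49592612 and *Ogn* at chr13:49608015-49624501 follow each other on the plus strand and all lie within the span of *Cenpp*, a centromere protein gene. *Fmod* at chr1:134037254-134048280 and *Prelp* at chr1:133910304-133930102 are near each other on opposite strands. *Bgn* is at chrX:73483601-73495936, and *Podn* is at chr4:108014793-108031954. In the GENCODE annotation of mm9 no exon base of *Aspn*, *Omd* or *Ogn* was shared with another gene. *Cenpp* had between 3.92 and 5.37 CPM (counts scaled to the TMM-adjusted library size), far below *Aspn* and *Ogn*. *Omd* was closer to it, at 20.2 to 30.2 CPM. *Prelp* shared 350 exon bases with *Gm15851* on the opposite strand. How the counting treated strand is not given in the sources used here, so reads of those bases cannot be told apart.

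Because the deleted gene encodes a transcription factor, the 250 bases before an annotated start were searched on both strands for the STAT motif TTCNNNGAA, with TGTGGT, the core of the motif of the osteoblast factor Runx2, as a companion. RefSeq windows on GRCm38.p6 were matched for 8 of the 10 genes, in 9 windows, and none for *Dcn* and *Lum*. The windows of *Prelp* and *Kera* and 1 of the 2 windows of *Podn* belong to starts inside the gene span given above. The STAT letters were in 0 of the 9 windows and in 7.02% of all 32851 windows. At that background rate, 9 windows are too few to show a lack of the motif. Bases further from the start were not searched, and the STAT3 sites that the study predicted in the *Dlx5* promoter lie further out. The Runx letters were in 1 of the 9 windows, that of *Ogn*, and in 14.0% of all windows, and it overlapped no STAT letters. The windows shown are those of *Bgn*, the gene with the most counts, and of *Aspn* and *Ogn*, the genes with the highest fold changes. They are on the plus strand at chrX:73483351-73483600, chr13:49544193-49544442 and chr13:49607765-49608014. Capitals mark the Runx letters, read on the opposite strand.
Bgn: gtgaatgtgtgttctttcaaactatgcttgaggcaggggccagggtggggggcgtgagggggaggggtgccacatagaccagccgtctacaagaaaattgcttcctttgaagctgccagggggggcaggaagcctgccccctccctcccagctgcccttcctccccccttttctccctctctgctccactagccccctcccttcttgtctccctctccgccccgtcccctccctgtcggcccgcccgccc
Aspn: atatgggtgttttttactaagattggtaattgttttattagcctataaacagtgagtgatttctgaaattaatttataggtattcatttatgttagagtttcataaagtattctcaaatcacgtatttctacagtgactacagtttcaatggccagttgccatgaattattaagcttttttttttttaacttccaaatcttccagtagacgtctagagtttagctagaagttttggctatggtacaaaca
Ogn: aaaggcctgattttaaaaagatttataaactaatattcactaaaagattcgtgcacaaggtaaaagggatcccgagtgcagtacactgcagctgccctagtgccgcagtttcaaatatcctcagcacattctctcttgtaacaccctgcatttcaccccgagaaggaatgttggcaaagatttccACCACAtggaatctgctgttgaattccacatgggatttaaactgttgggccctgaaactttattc
The match in *Ogn* begins 65 bases before the start, written as -65. A match is a description of the letters and not of a factor's binding.

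Counts on genes summed to between 8193651 and 12080044 per library, and every library labelled *OsxCre;Stat3fl/fl* was smaller than every *OsxCre* library. The 10 genes had between 162 counts, for *Kera*, and 20299 counts, for *Bgn*, in a single library. Counting error alone, at a gene's lowest count, ran from 0.904% of the value for *Bgn* to 7.86% for *Kera*. The targeted gene *Stat3* was not lower in the libraries labelled *OsxCre;Stat3fl/fl*. It had 150, 135 and 141 CPM in the *OsxCre* libraries, against 153, 155 and 155 CPM in the others. These whole-gene counts thus do not bear out the label. They cannot decide it either, since only some exons would be deleted and cells that never made Cre keep the whole gene. The study describes male newborns, whereas *Xist*, the RNA that coats the inactive X chromosome of female cells, had between 881 and 1059 CPM in all 6 libraries and 4 Y-linked genes had 2 counts in all. *Bgn* is X-linked and was compared among libraries that were alike in this respect.

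The order of the genes was read from CPM per kilobase of the longest transcript, a level that can be compared between genes. In the *OsxCre* libraries *Bgn* stood first at 736 ± 69.6 (SD, n = 3) CPM per kilobase, followed by *Dcn* at 356 ± 38.7. *Lum* at 177 ± 17.8, *Aspn* at 166 ± 13.6, *Ogn* at 140 ± 15.9 and *Fmod* at 129 ± 11.3 came next, and each of these overlapped its neighbour in the order. *Prelp* at 24.9 ± 1.56 and *Omd* at 16.8 ± 1.72 lay below every library of the gene above them. *Kera* at 11.0 ± 0.483 and *Podn* at 10.3 ± 1.00 closed the order and overlapped. With the union of exons as the length, the order in *OsxCre* was the same, with *Bgn* at 491 and *Dcn* at 324 CPM per kilobase. By that length *Podn* lay below every *Kera* library, so levels and overlaps depend on the length chosen. The class I proteins biglycan and decorin thus had the highest RNA levels per length, and keratocan and podocan the lowest of the 10. In the libraries labelled *OsxCre;Stat3fl/fl* *Lum*, at 142 ± 18.5 CPM per kilobase, moved from the third to the fifth place behind *Aspn* at 202 ± 29.7 and *Ogn* at 161 ± 20.2, and the other genes kept their relative order. *Aspn* and *Ogn* overlapped there, as did *Ogn* and *Lum*.

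**Figure D1:**
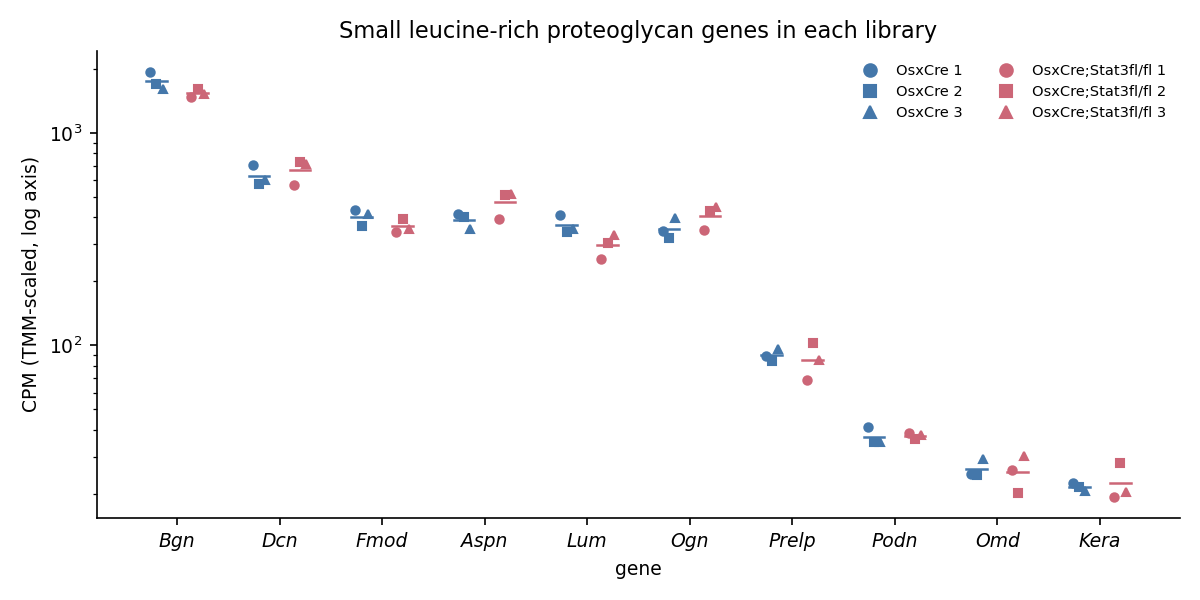
Level of each gene in every library, in TMM-scaled CPM on a log axis; blue points are the 3 OsxCre libraries, red points the 3 labelled OsxCre;Stat3fl/fl, and short lines the group means. Bgn lies between 1471 and 1932 CPM and Kera between 19.5 and 28.1 CPM, and only Bgn and Lum show no overlap between the colours.

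Among the class I genes, *Bgn* had the most counts and *Aspn* the highest fold change. *Bgn* encodes biglycan, which is abundant in bone matrix and supports mineralisation. It had 1932, 1705 and 1610 CPM in *OsxCre* libraries 1, 2 and 3 and 1471, 1604 and 1525 CPM in the libraries labelled *OsxCre;Stat3fl/fl*. The second group lay wholly below the first, although its highest library and the lowest *OsxCre* library were only a few CPM apart. The log2 fold change was -0.19 (95% interval -0.43 to 0.06), with an adjusted p of 0.424 by edgeR's quasi-likelihood test.

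*Dcn* encodes decorin, which coats collagen fibrils and holds TGF-beta in the matrix. It had 704, 575 and 601 CPM in the *OsxCre* libraries, against 569, 729 and 710 CPM in those labelled *OsxCre;Stat3fl/fl*. The groups overlapped over nearly their whole range, and the lowest and the highest value were both in libraries labelled *OsxCre;Stat3fl/fl*. Its log2 fold change was 0.10 (-0.20 to 0.39), with an adjusted p of 0.774.

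*Aspn* encodes asporin, a class I protein with an aspartate-rich end in place of the glycosaminoglycan chains, which binds collagen and calcium. It had 415, 401 and 354 CPM in the *OsxCre* libraries, against 394, 512 and 517 CPM in those labelled *OsxCre;Stat3fl/fl*. Libraries 2 and 3 of the latter were above all others, while library 1 lay among the *OsxCre* values. The log2 fold change of 0.28 (-0.01 to 0.57) did not pass, with an unadjusted p of 0.0549 and an adjusted p of 0.317 by edgeR's quasi-likelihood test. Leaving out each library in turn gave values between 0.22 and 0.40, the highest without library 1 labelled *OsxCre;Stat3fl/fl*.

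Of the 5 class II genes, *Lum* had the lowest log2 fold change. It alone did not overlap between the genotypes, as 23.0% of all genes tested did not, and it did not pass after adjustment. *Lum* encodes lumican, the keratan sulfate proteoglycan known for the transparency of the cornea, which also limits fibril thickness in skin and tendon. It had 410, 341 and 353 CPM in the *OsxCre* libraries, against 254, 303 and 330 CPM in those labelled *OsxCre;Stat3fl/fl*. All 3 of the latter were below all 3 of the former, by a gap smaller than the range within either group. The log2 fold change was -0.32 (-0.59 to -0.04), a level 0.803 of that in *OsxCre*, with an unadjusted p of 0.0303 and an adjusted p of 0.247 by edgeR's quasi-likelihood test. It stayed between -0.40 and -0.22 when each library was left out in turn. In a bulk sample, fewer cells of a type and less RNA per cell cannot be told apart.

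*Fmod* encodes fibromodulin, which guides the cross-linking of collagen in tendon and bone. It had 432, 364 and 413 CPM in the *OsxCre* libraries, against 341, 395 and 353 CPM in those labelled *OsxCre;Stat3fl/fl*. The means were 403 ± 35.2 and 363 ± 28.3 CPM (SD, n = 3), and the groups overlapped. On the log2 scale the difference was -0.15 (-0.38 to 0.08), with an adjusted p of 0.503.

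The other class II genes were lower in level and shared no direction. *Prelp*, whose product anchors basement membranes to connective tissue, had 89.4, 84.8 and 96.0 CPM in the *OsxCre* libraries, against 68.5, 103 and 85.0 CPM in the libraries labelled *OsxCre;Stat3fl/fl*. *Omd* encodes osteomodulin, also called osteoadherin, which osteoblasts secrete into mineralised matrix. It had 24.8, 24.5 and 29.3 CPM in the *OsxCre* libraries, against 25.9, 20.2 and 30.2 CPM in the libraries labelled *OsxCre;Stat3fl/fl*. *Kera*, whose keratocan is typical of cornea and tendon, had 22.5, 21.6 and 20.6 CPM in the *OsxCre* libraries, against 19.5, 28.1 and 20.3 CPM in the libraries labelled *OsxCre;Stat3fl/fl*. In each of these genes the libraries labelled *OsxCre;Stat3fl/fl* held both the lowest and the highest value. Library 2 of that label was the highest for *Prelp* and *Kera* and the lowest for *Omd*. The log2 fold changes were -0.08 (-0.40 to 0.25) for *Prelp*, -0.04 (-0.41 to 0.32) for *Omd* and 0.07 (-0.28 to 0.42) for *Kera*, each with an adjusted p of at least 0.844 by edgeR's quasi-likelihood test. The sign of each turned when 1 library was left out, *Prelp* reaching 0.061 without library 1 labelled *OsxCre;Stat3fl/fl*, and *Omd* 0.10 and *Kera* -0.11 without library 2 of that label.

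*Ogn*, of class III, encodes osteoglycin or mimecan, a protein of bone and vessel wall that takes part in fibril formation. It had 346, 319 and 398 CPM in the *OsxCre* libraries, against 349, 428 and 445 CPM in those labelled *OsxCre;Stat3fl/fl*. As for *Aspn* of the same cluster, libraries 2 and 3 labelled *OsxCre;Stat3fl/fl* were the highest of the 6 and library 1 lay among the *OsxCre* libraries. *Omd*, which lies between them, did not follow and was lowest in library 2 of that label. The log2 fold change of *Ogn* was 0.20 (-0.09 to 0.49), with an adjusted p of 0.470.

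*Podn*, of class V, encodes podocan, first described in the kidney and present in smooth muscle and bone. It had 41.5, 35.3 and 35.1 CPM in the *OsxCre* libraries, against 38.5, 36.3 and 37.9 CPM in the libraries labelled *OsxCre;Stat3fl/fl*. The latter lay inside the range of the former. On the log2 scale the difference was 0.01 (-0.21 to 0.23), with an adjusted p of 0.973.

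**Figure D2:**
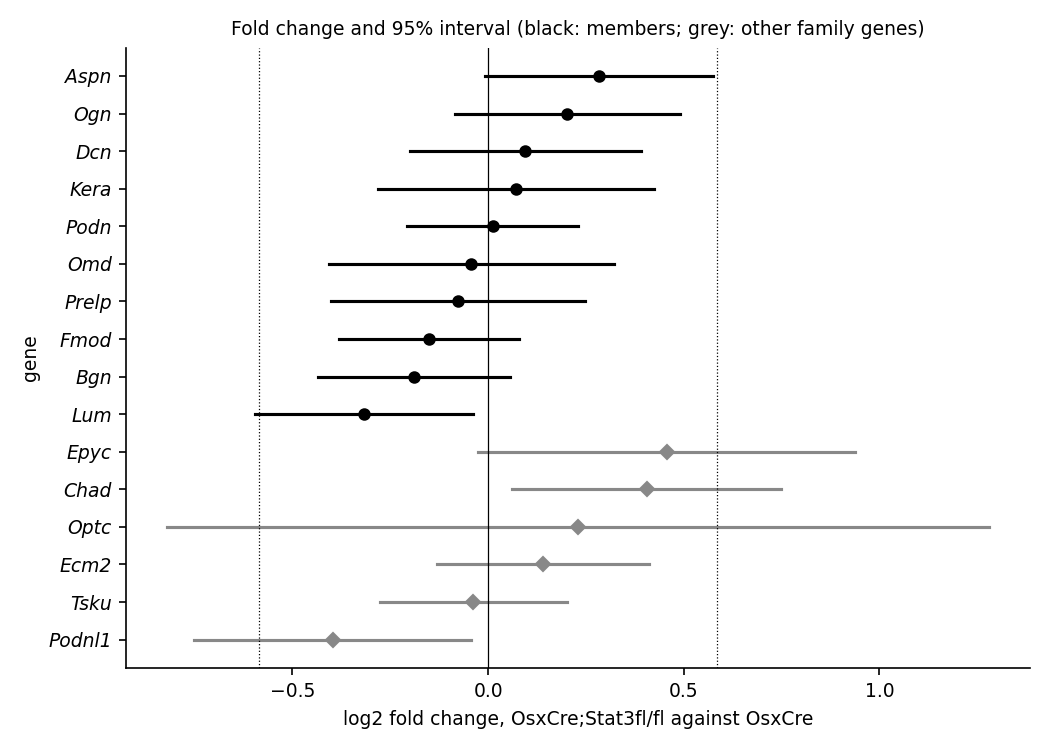
Log2 fold change of OsxCre;Stat3fl/fl against OsxCre with its 95% interval for the 10 genes (black) and 6 other genes of the family (grey); the solid line is no change and the dotted lines are 1.5-fold in each direction. Among the 10 genes only the interval of Lum, -0.59 to -0.04, leaves out 0.

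The signs were balanced, with 5 genes above and 5 below 0 after TMM scaling, and all 10 below 0 without any scaling, where 4 (*Bgn*, *Fmod*, *Lum* and *Podn*) and 34.9% of all genes passed as lower. The median log2 fold change of the 10 genes was -0.02, and that of all genes tested was -0.00. Without scaling these medians were -0.39 and -0.38. The median size of the log2 fold change, sign aside, was 0.12 for the 10 genes, 0.16 for all genes tested and 0.12 for the 8104 genes with a mean of at least 20 CPM. The half-width of the 95% interval ran from 0.22 for *Podn* to 0.36 for *Omd* on the log2 scale, which is the precision that 3 libraries per genotype gave. These half-widths are not the limit of the adjusted test. The interval of *Lum* left out 0, and *Lum* still had an adjusted p of 0.247 by edgeR's quasi-likelihood test.

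**Figure D3:**
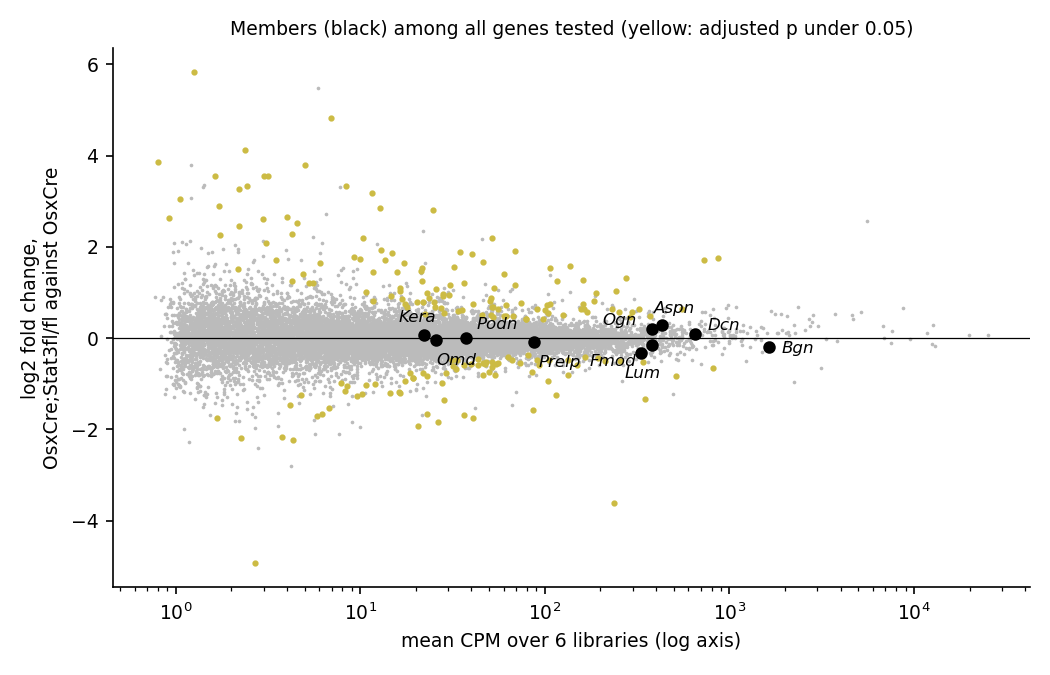
Log2 fold change of OsxCre;Stat3fl/fl against OsxCre plotted against the mean level in CPM (log axis) for all 15600 genes tested; yellow points have an adjusted p under 0.05 and black points are the 10 genes. The 10 genes lie close to 0, between -0.32 and 0.28, and rank from 43 (Bgn) to 7716 (Kera) by mean CPM.

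The summed RNA of the 10 genes differed between the genotypes by less than the spread of the libraries. The summed level of the 10 genes was 4417, 3871 and 3911 CPM in the *OsxCre* libraries, against 3531, 4159 and 4055 CPM in those labelled *OsxCre;Stat3fl/fl*. The means of 4066 ± 304 and 3915 ± 337 CPM (SD, n = 3) were closer to each other than 1 SD of either group. Library 1 labelled *OsxCre;Stat3fl/fl* was the lowest and *OsxCre* library 1 the highest of the 6. As a share of all counts on genes the sum was 0.412 ± 0.0320% and 0.384 ± 0.0235%.

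The composition of this sum does not depend on the scaling, since each share is taken within a library, and so it was compared as a description. *Bgn* made up 43.7%, 44.0% and 41.2% of the sum in the *OsxCre* libraries and 41.6%, 38.6% and 37.6% in the libraries labelled *OsxCre;Stat3fl/fl*, with overlap. The share of *Lum* was 9.29%, 8.82% and 9.03% in the *OsxCre* libraries and 7.19%, 7.29% and 8.13% in the libraries labelled *OsxCre;Stat3fl/fl*, lower in every one. The share of *Aspn* was 9.39%, 10.4% and 9.05% and then 11.2%, 12.3% and 12.8%, higher in every library labelled *OsxCre;Stat3fl/fl*. The share of *Dcn* was also higher in every one, with 15.9%, 14.9% and 15.4% in *OsxCre* and 16.1%, 17.5% and 17.5% in the others. The shares of the other 6 genes and of *Bgn* overlapped between the genotypes. Of the 10 shares 2 were thus higher and 1 lower without overlap. Beside this, 23.0% of all genes tested did not overlap in CPM, and 26.0% of gene pairs did not in their ratios. Shares sum to the whole, so one that is lower makes others higher, and an exact permutation test of 3 against 3 libraries cannot give a p below 0.1.

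**Figure D4:**
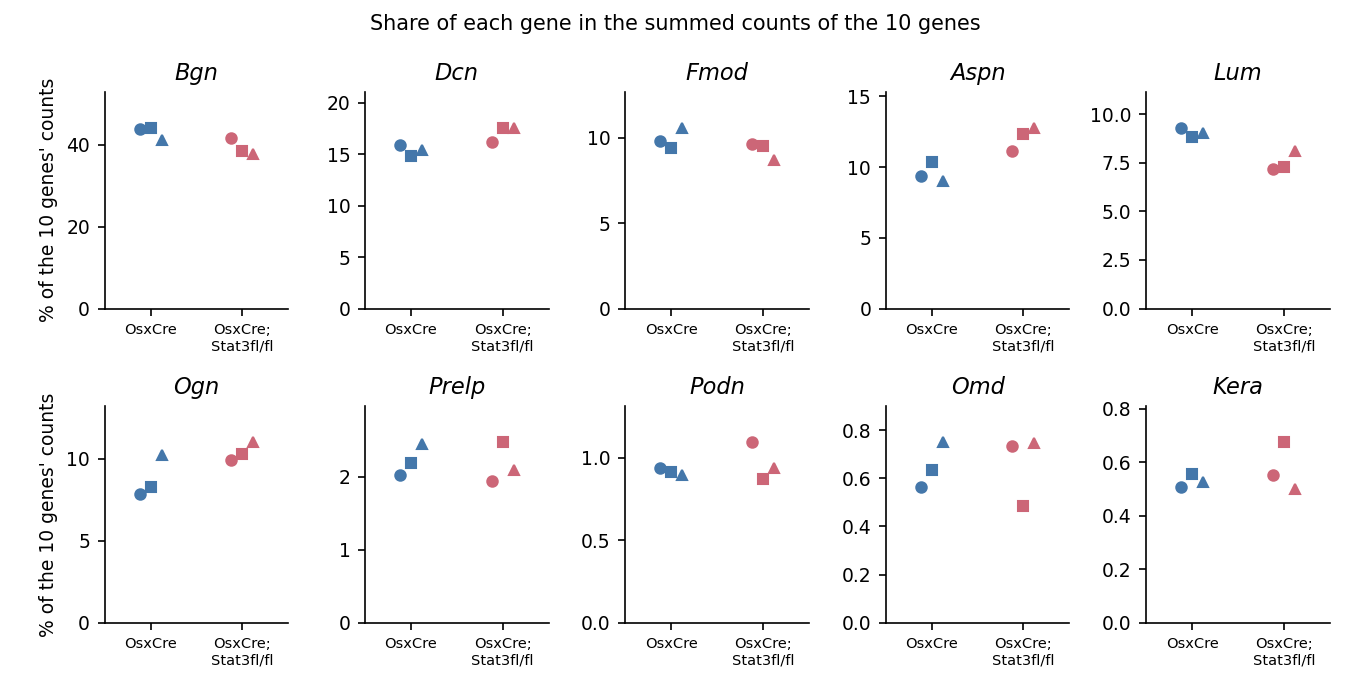
Share of each gene in the summed counts of the 10 genes, in percent, one panel per gene with its own axis from 0; blue points are the OsxCre libraries and red points those labelled OsxCre;Stat3fl/fl (circle, square and triangle for libraries 1, 2 and 3). Lum goes from a mean of 9.05% to 7.54%, Aspn goes from 9.60% to 12.1% and Dcn from 15.4% to 17.1%, each without overlap. Of all genes tested, 23.0% did not overlap in CPM.

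Ratios of counts within a library compared the genes pair by pair, again free of the scaling. The chromosome 10 neighbours *Dcn* and *Lum* had a ratio of 1.71, 1.68 and 1.70 in the *OsxCre* libraries and 2.24, 2.40 and 2.15 in the libraries labelled *OsxCre;Stat3fl/fl*. On the log2 scale the ratios had an SD of 0.013 in the *OsxCre* libraries and of 0.081 in the others, and the mean difference between the genotypes was 0.41. The ratio of *Aspn* to *Lum* was 1.01, 1.17 and 1.00 in the *OsxCre* libraries and 1.55, 1.69 and 1.57 in the others, the largest difference of the 45 pairs at 0.60 on the log2 scale. The ratio of *Bgn* to *Aspn*, both of class I, was 4.66, 4.25 and 4.55 in the *OsxCre* libraries and 3.73, 3.13 and 2.95 in the others. The ratio of *Lum* to *Ogn* was 1.19, 1.07 and 0.887 in the *OsxCre* libraries and 0.727, 0.707 and 0.740 in the others. The ratios of *Kera* to *Dcn* and *Lum* of the same chromosome 10 cluster overlapped between the genotypes. The chromosome 13 neighbours *Omd* and *Ogn* also had overlapping ratios, between 0.0718 and 0.0768 in *OsxCre* and between 0.0472 and 0.0743 in the others. Of the 45 pairs of the 10 genes, 13 (28.9%) had ratios without overlap between the genotypes, and of all pairs of the 8104 genes with a mean of at least 20 CPM 26.0% did. The share of such pairs among the 10 genes was thus near the background, and no test was applied to single pairs.

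**Figure D5:**
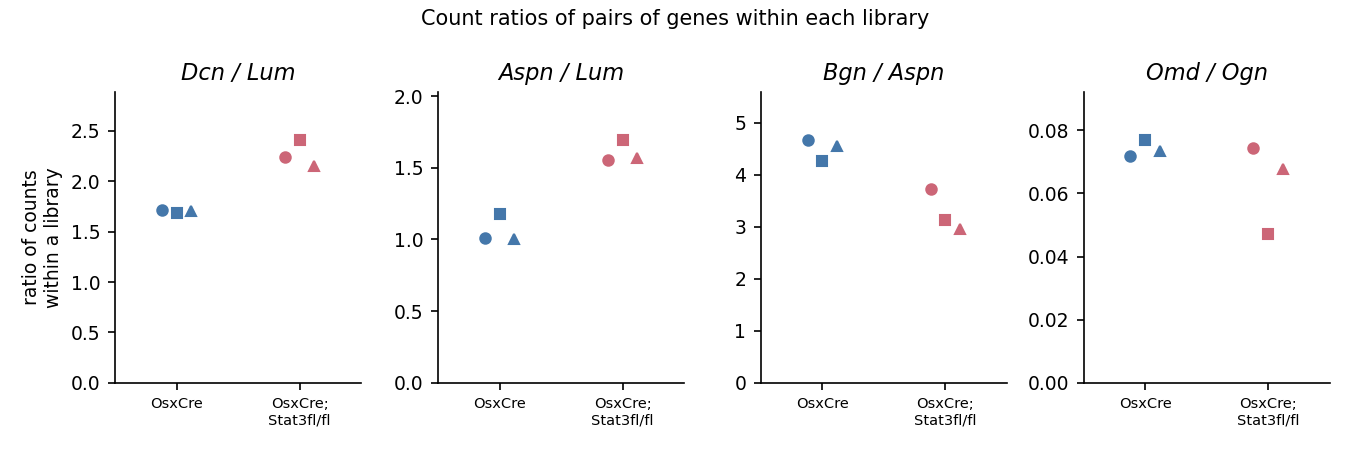
Ratio of counts of 2 genes within each library, with axes from 0 and the same colours and symbols. Dcn to Lum, Aspn to Lum and Bgn to Aspn show no overlap between the genotypes, and Omd to Ogn does.

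The other genes of the family on the list were *Epyc*, *Optc*, *Chad*, *Nyx*, *Tsku*, *Podnl1* and *Ecm2*, of which 6 could be tested and 0 passed an adjusted p of 0.05 by edgeR's quasi-likelihood test. *Nyx*, known from the retina, was below the filter. *Chad*, whose chondroadherin binds chondrocytes to cartilage matrix, had 20.6, 25.2 and 26.4 CPM in the *OsxCre* libraries, against 35.9, 26.2 and 33.3 CPM in the libraries labelled *OsxCre;Stat3fl/fl*. Its log2 fold change was 0.40 (unadjusted p 0.0265, adjusted p 0.233). *Podnl1*, the closest relative of podocan, had 15.9, 13.1 and 16.9 CPM and then 12, 10.2 and 12.6 CPM, lower in every library labelled *OsxCre;Stat3fl/fl*. Its log2 fold change was -0.40 (unadjusted p 0.0324, adjusted p 0.254). *Epyc*, a cartilage proteoglycan and the neighbour of *Kera*, was at 0.46 on the log2 scale (adjusted p 0.328). The values were 0.23 for *Optc*, 0.14 for *Ecm2* and -0.04 for *Tsku*, with adjusted p-values of 0.858, 0.607 and 0.901. At an unadjusted p of 0.05 the count was thus 2 of 6, one in each direction, where 16.4% of all genes passed, and by DESeq2 and limma-voom 0 of the 6 passed after adjustment.

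The enzymes that build the sugar chains were read as the next step of the pathway. Of 26 genes for chondroitin and dermatan sulfate chains 0 rose and 0 fell at an adjusted p of 0.05 by edgeR's quasi-likelihood test, 3 of the 26 passed unadjusted, where 16.4% of all genes did, and the median log2 fold change was -0.10. The smallest p-value belonged to *Acpl2*, whose product removes phosphate from the xylose of the chain linker (log2 fold change -0.57, adjusted p 0.170). *Chst13*, a chondroitin sulfotransferase with only 12 to 50 counts per library, followed (-0.94, adjusted p 0.202). The third was *B3galt6*, a galactosyltransferase of the linker (-0.42, adjusted p 0.270). Of 8 tested genes for keratan sulfate chains, the chains of lumican and fibromodulin, 0 rose and 0 fell after adjustment, 2 of the 8 passed unadjusted, against the same 16.4%, and the median was -0.20. *Chst1*, which sulfates the galactose of keratan sulfate, had 21.1, 21.3 and 22.2 CPM in the *OsxCre* libraries, against 15.6, 16.3 and 17.2 CPM in the others. *Chst2*, which sulfates its N-acetylglucosamine, had 39.1, 37.8 and 36.8 CPM and then 31.8, 28.9 and 31.7 CPM. Both were lower in every library labelled *OsxCre;Stat3fl/fl*, with log2 fold changes of -0.40 and -0.30 and adjusted p-values of 0.118 and 0.140. *B3gnt7*, which extends the chain and had only 15 to 45 counts per library, was the third by p, at -0.60 (adjusted p 0.326).

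The partners of these proteins in the matrix were likewise without a call. Of 13 fibrillar and fibril-associated collagen genes 0 rose and 0 fell after adjustment, 2 of the 13 passed unadjusted, where 16.4% of all genes did, and the median log2 fold change was 0.10. The smallest p-values were those of *Col24a1* (-0.45, adjusted p 0.210), a fibrillar collagen of developing bone, *Col14a1* (0.47, adjusted p 0.236), which sits on fibril surfaces as decorin does, and *Col2a1* (0.49, adjusted p 0.317), the main collagen of cartilage. Of 14 growth factors, receptors and matrix proteins that SLRPs bind, 0 rose and 0 fell after adjustment and 4 of the 14 passed unadjusted, against the same 16.4%, with a median of 0.06. *Bmp4*, a bone morphogenetic protein, was at 0.28 on the log2 scale (adjusted p 0.139), *Egfr*, a receptor that decorin binds, 0.31 (adjusted p 0.159), and *Met*, another decorin receptor, 0.36 (adjusted p 0.191). Without scaling, which moved the median of all genes to -0.38, these 3 were between -0.10 and -0.02. The list of proteases that process or cleave SLRPs held 10 tested genes, among them *Pcolce*, which encodes an enhancer of such a protease. Of these 10, 0 rose and 0 fell after adjustment by edgeR's quasi-likelihood test. Unadjusted, 3 of the 10 passed, against the same 16.4%, with a median of -0.23. *Bmp1*, which trims the propeptide of biglycan and of procollagen, had 586, 493 and 510 CPM in the *OsxCre* libraries, against 447, 429 and 386 CPM in the others, a log2 fold change of -0.33 (adjusted p 0.167). *Mmp14*, a membrane protease that cleaves lumican, was at -0.27 (adjusted p 0.183), and *Adamts5*, an aggrecanase, at 0.37 (adjusted p 0.127), or -0.0093 without scaling, under the same shift of all genes. Over the 5 lists of enzymes, collagens, partners and proteases, limma-voom called 0 genes and DESeq2's Wald test 1, *Bmp1*, as lower.

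Markers of the cell types in the sample were read beside these values. Of all genes tested, 1.26% passed after adjustment, 16.4% passed unadjusted and 23.0% had libraries without overlap. Osteoblast markers, summed over 7 genes, were between 14176 and 19059 CPM in *OsxCre* and between 13142 and 16714 CPM in the libraries labelled *OsxCre;Stat3fl/fl*, and all 7 were above the filter on low counts in this bone. Most of that sum was *Col1a1*, at 9902 to 15152 CPM over the 6 libraries. Of the 7 markers 5 had a negative log2 fold change, 2 passed unadjusted as lower, and 1 fell after adjustment, *Ibsp*, the bone sialoprotein gene (log2 fold change -0.66, adjusted p 0.0213 by edgeR's quasi-likelihood test). The other of the 2 was *Alpl*, the alkaline phosphatase gene, lower in every library labelled *OsxCre;Stat3fl/fl* (-0.54, adjusted p 0.0578). Summed fibroblast markers were 3626 to 4568 CPM and 4134 to 5182 CPM, with 0 of 10 passing (2 unadjusted, both higher), and cartilage markers 2172 to 3654 CPM and 3218 to 4166 CPM, with 0 of 9 passing (2 unadjusted, both higher). Tendon markers, which include *Kera*, were 294 to 342 CPM and 381 to 462 CPM without overlap, and 1 of 5 rose, *Thbs4* (0.64, adjusted p 0.0213). Without *Thbs4* the other 4 tendon markers overlapped, at 177 to 206 CPM and 190 to 263 CPM. Skeletal muscle markers were 22357 to 24148 CPM and 25189 to 37257 CPM without overlap. After adjustment 1 of 8 was higher, *Myh3* of embryonic muscle (1.71, adjusted p 0.0204), and 1 lower, *Myh4* of fast muscle (-3.61, adjusted p 3.87e-05). Unadjusted, 5 of the 8 passed as higher and 1 as lower. Macrophage markers were 298 to 319 CPM and 366 to 386 CPM, with 1 of 6 higher, *C1qb* (0.50, adjusted p 0.0253), and 2 higher unadjusted. The 6 listed keratinocyte markers summed to 20.2 to 28.3 CPM and 33.8 to 37.4 CPM. That sum includes *Krt5*, *Krt14* and *Krt1*, which were below the filter on low counts. Of the 3 tested 0 passed (2 unadjusted, both higher). Erythroid markers were lower without overlap, 7208 to 9393 CPM and 3593 to 6562 CPM, with 0 of 7 passing (3 unadjusted). The osteocyte, meningeal, neuron, endothelial and osteoclast sums overlapped between the genotypes with 0 genes passing, and 1 osteocyte and 1 endothelial marker passed unadjusted. Over these marker lists limma-voom added no call, and DESeq2's Wald test added the fibroblast markers *Fbln1* and *Pdgfra* and the muscle markers *Ckm*, *Myh8* and *Tnnt3* as higher and *Alpl* and *Hbb-bs* as lower. When each library was left out in turn, the adjusted p ranged from 0.0399 to 0.105 for *Ibsp*, from 0.0441 to 0.107 for *Thbs4*, from 0.0132 to 0.0967 for *Myh3* and from 0.065 to 0.104 for *C1qb*, while *Myh4* stayed at or below 0.0036. The part of these cell types in the values of the 10 genes was not tested.

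The mean log2 level of the 10 genes, each gene centred on its own mean, was lowest in library 1 labelled *OsxCre;Stat3fl/fl* at -0.16 and highest in *OsxCre* library 1 at 0.09. Over the 6 libraries Pearson's r of each gene with this mean was highest for *Dcn* (0.90) and *Prelp* (0.80), intermediate for *Fmod* and *Lum* (both 0.68), *Kera* (0.57), *Ogn* (0.55), *Aspn* (0.52) and *Bgn* (0.50), and lowest for *Podn* (0.21) and *Omd* (-0.14). The genes outside the list that followed the mean most closely, among 10357 genes with a mean of at least 10 CPM, were *Olfml2b* (r = 0.99), an extracellular matrix gene, *Tgfb2* (0.99), a TGF-beta ligand, *Pcdhgc3* (0.98) and *Tnfrsf11b* (0.98), the gene of osteoprotegerin. *Mprip*, *Pdcd7*, *Lsm14a*, *Reps2*, *Cdkn1b* and *Kank2* followed with r between 0.97 and 0.98. These correlations rest on 6 libraries that share scaling and genotype labels, each gene of the 10 is part of the mean it was set against, and they are given as a description only.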

How the data were processed

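RNA-seq of polyadenylated RNA from newborn parietal bone was analysed, with 3 libraries per genotype. Per the labels, RNA was prepared with Trizol and a TruSeq kit, and the submitters' processing notes name HISAT2 and GRCm38, whereas the methods describe mapping to mm9 with TopHat and FPKM from Cufflinks. The authors deposited raw counts per gene symbol, without normalization, and the counting program is not given in the sources used here. The methods give 3 mice per genotype. Groups were taken from the labels, and where libraries are not from separate animals the p-values measure technical spread only.

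The steps in edgeR 4.0.16 (R 4.3.3) were filterByExpr (minimum count 10, minimum total 15), TMM scaling, and the quasi-likelihood test, two-sided, on 15600 genes with Benjamini-Hochberg adjustment and a threshold of 0.05. CPM use TMM-scaled library sizes. Depth was 8193651 to 12080044 counts, and counting errors cover counting only. Libraries of a genotype were not duplicates (chi-square of at least 8.17 per degree of freedom). On counts simulated for this comparison over 15600 genes, 58.9% of 192 tested genes changed 2-fold were called, with 13 other calls. Alternatives were other scalings and filters, DESeq2 1.42.0, limma-voom (limma 3.58.1), the replicate number as a block and leaving out each library.

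The 10 genes and all lists were chosen with earlier results of these data known. The genes named are the 10, the other family genes, of each further list those that passed or else the 3 with the smallest p (of cell type lists only those that passed by 1 of the tools), *Stat3*, *Xist*, and the 10 genes most correlated with the mean of the 10. Ratios and shares were chosen for display after their values were seen. Transcript lengths and exons came from GENCODE (mm9), positions and promoter windows from RefSeq (GRCm38.p6), matched by symbol. Plots used Python 3.11.15 and matplotlib 3.10.9.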

Additional observations from a re-analysis of the deposited data

How the results depend on the processing

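With the scaling set by TMM, DESeq2's size factors, library totals or the upper quartile, with either other filter, with DESeq2, limma-voom or the replicate block, and without each library in turn, 0 of the 10 genes passed in either direction. Without any scaling 4 fell (*Bgn*, *Fmod*, *Lum* and *Podn*), and all 10 were negative, as was most of the table, with 5451 genes lower and a median of -0.38 over all genes. The log2 fold changes that turned negative there were -0.28 for *Dcn*, -0.087 for *Aspn*, -0.31 for *Kera*, -0.18 for *Ogn*, -0.36 for *Podn*, -0.15 for *Optc*, -0.23 for *Ecm2*, -0.10 for *Bmp4*, -0.067 for *Egfr*, -0.020 for *Met*, -0.0093 for *Adamts5* and -0.26 for *Stat3*. Library totals gave -0.033 for *Podn* and 114 genes lower. Leaving out each library in turn gave ranges that crossed 0 for *Prelp* (-0.22 to 0.061), *Kera* (-0.11 to 0.17), *Omd* (-0.18 to 0.10), *Podn* (-0.032 to 0.10), *Tsku* (-0.11 to 0.060) and *Optc* (-0.045 to 0.61).

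Over all genes, 121 were higher and 75 lower at an adjusted p of 0.05. These became 250 and 178 with no filter on low counts and 307 and 231 with DESeq2's Wald test, and ran from 7 to 67 and from 5 to 36 without 1 library, the lowest without library 3 labelled *OsxCre;Stat3fl/fl*, where fewer samples were fitted. With the replicate block the counts were 0 and 1. Same-numbered libraries did not deviate together (correlations of -0.10, -0.51 and -0.09, and 0 of 6 libraries correlated best with its own number), so the numbers gave no pairing. *Ibsp*, *Thbs4*, *Myh3* and *C1qb* had an adjusted p of 0.122 in that fit. The cause of the other shifts was not tested. Counting error at the lowest count was largest for *Kera* (7.86%) and *Omd* (7.78%), which had 162 to 349 counts per library. The SD of these 2 genes among the libraries labelled *OsxCre;Stat3fl/fl* was 20.9% and 19.6% of the mean. The part of depth in this spread was not tested.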
